A study of Homo sapiens with 4 samples.

Results

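Chromatin accessibility in FLI1-intact HK1 cells was compared between a culture treated with interferon-γ (IFN-γ) and an untreated one. The members were the peaks of the 2 lists on chromosomes 1 to 22 and X. A peak overlapping a peak of the other list by at least 1 bp was taken as shared, and the remainder were gained (listed with IFN-γ only) or lost (listed without it only). Of 67470 peaks with IFN-γ, 16999 were gained (25.2%, 95% Wilson interval 24.9 to 25.5%) and 50471 were shared. Of 59629 untreated peaks, 9482 were lost (15.9%, 15.6 to 16.2%) and 50147 were shared. Together the lists held 127099 of the 250225 peaks of the series.

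HK1 is an established human nasopharyngeal carcinoma line. Both groups carried the WT genotype, in which the transcription factor gene FLI1 had not been disrupted, and differed by treatment (Control or IFN-gamma). The labels give neither the dose nor the duration of IFN-γ, and the study describes this treatment as lasting a day. The study's methods describe a filter for reproducible peaks, but how many cultures stand behind each list is not given in the sources used here. There was 1 library per group, so no spread between replicates could be measured and no test between groups was run, and the intervals given here are 95% counting intervals within a library and cover counting error only.

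IFN-γ is a cytokine of activated T cells and natural killer cells. It binds the receptor pair IFNGR1 and IFNGR2, whose JAK kinases activate transcription factors that induce a first wave of genes. Among these is IRF1, a factor of the interferon regulatory factor (IRF) family, which binds paired GAAA repeats and activates further genes of antigen presentation and antiviral defence. In ATAC-seq a transposase cuts accessible DNA, and a peak marks a stretch cut more often than its surroundings. The summit pileup, in tags, is the number of extended reads over the highest point of a peak.

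Sequences at 3 gained regions near interferon genes, 1 shared region with more tags after IFN-γ and 1 lost region are printed to show the 2 sequence features described for these classes. They were read from GRCh38 (hg38) on the plus strand within 100 bp of the summit, and were trimmed where that window ran into an annotated exon. Capitals mark the IRF motif (GAAA, any 2 bases, GAAA, on either strand) in the first 4 sequences and the CTCF motif in the last. The gene CIITA encodes the activator of MHC class II transcription. Its printed region had a summit 1654 bp after the canonical start and held 2 overlapping matches.
CIITA, downstream of the canonical start, gained (chr16:10878756-10878956): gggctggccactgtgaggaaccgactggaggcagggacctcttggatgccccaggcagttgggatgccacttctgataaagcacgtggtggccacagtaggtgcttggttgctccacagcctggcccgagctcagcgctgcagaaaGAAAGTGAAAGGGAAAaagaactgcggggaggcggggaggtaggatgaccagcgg
UBE2L6, downstream of its start, gained (chr11:57566243-57566443): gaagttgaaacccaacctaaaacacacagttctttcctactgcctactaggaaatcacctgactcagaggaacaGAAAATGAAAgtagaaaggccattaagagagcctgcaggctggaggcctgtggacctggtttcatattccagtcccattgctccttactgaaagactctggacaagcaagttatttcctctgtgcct
IFIT3, gained (chr10:89332367-89332483): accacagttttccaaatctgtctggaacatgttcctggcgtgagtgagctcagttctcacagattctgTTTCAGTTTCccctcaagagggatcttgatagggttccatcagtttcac
Upstream of RNF7, shared (chr3:141686779-141686979): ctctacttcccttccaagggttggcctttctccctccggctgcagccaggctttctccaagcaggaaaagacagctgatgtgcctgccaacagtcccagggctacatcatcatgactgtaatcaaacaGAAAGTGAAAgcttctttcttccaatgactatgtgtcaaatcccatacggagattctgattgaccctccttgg
Upstream of CCDC179, lost (chr11:22875981-22876181): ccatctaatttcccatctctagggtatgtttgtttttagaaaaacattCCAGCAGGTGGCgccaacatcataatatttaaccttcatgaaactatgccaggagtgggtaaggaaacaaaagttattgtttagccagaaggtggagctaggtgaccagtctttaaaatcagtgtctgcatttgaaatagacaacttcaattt
Within 100 bp of the summit the IRF motif occurred in 13.4% of gained regions (12.9 to 13.9%), 2.3% of lost ones and 2.98% of shared ones. At 5 kb from the same summits the shares were 3.49%, 3.46% and 3.18%, so the higher share of the gained regions was seen at their summits and not beside them. Among 35116 RefSeq promoters of 300 bases, 3.57% held it.

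Gained regions were weaker and narrower than shared ones. Their median pileup was 14 tags against 41 in shared peaks, and their median width was 391 bp against 763 bp. Lost regions resembled them, with 13 tags and 410 bp. Base composition followed the same order, at a median GC content of 46.3% in gained, 46.8% in lost and 52.7% in shared regions. The median distance from a gained region to the nearest transcription start site (TSS) of a protein-coding gene was 22115 bp, compared with 22357 bp for lost and 10051 bp for shared regions.

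**Figure D1:**
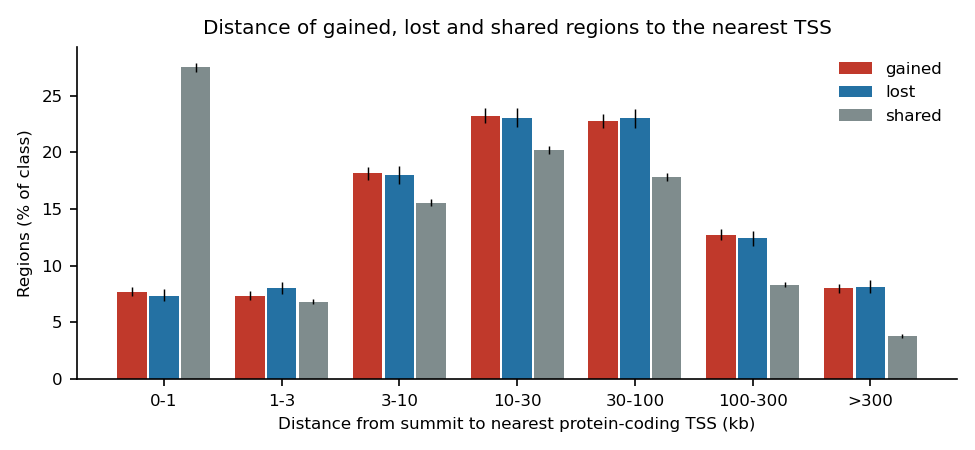
Distance from the summit to the nearest TSS of a protein-coding gene (kb, x axis) against the share of each class (%, y axis), with 95% Wilson intervals. Within 1 kb lay 7.71% of gained and 7.37% of lost regions against 27.5% of shared ones, and beyond 10 kb the gained and lost shares were the higher ones.

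Promoters, taken as summits within 3 kb of a TSS, held 15.1% of gained regions (14.5 to 15.6%) and 15.4% of lost regions, against 34.3% of shared ones. Introns held 34.6% of gained regions and intergenic sequence 47.7%. In gained, lost and shared regions alike, those with more tags were more often at promoters. Of the 8578 gained regions under 15 tags, 11.7% were at promoters, and of the 345 with 60 tags or more, 45.5% were. The same groups had 12.5% and 57.8% in lost regions and 11.7% and 61.0% in shared regions. The IRF motif was also commoner in larger gained regions, at 9.21% under 15 tags and 24.3% at 60 tags or more (20.1 to 29.1%). In lost regions the same groups had the motif in 2.54% and in 0 of 64, the latter with an upper bound of 5.66%.

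Absence from a list is not absence of tags, so each gained region was set against the smallest pileup that the untreated list would have admitted at the same relative local background, which had a median of 8 tags. The local background of the untreated library at these positions is not known. After correction for tag density (8.84 tags per kb with IFN-γ and 8.04 untreated), the median gained region stood 1.37 times above this limit. Most gained regions were therefore close to what could be listed at all. At least 2 times the limit was reached by 3066 gained regions (18.0%), and by 599 with the lower bound of their counting interval. Of the lost regions 2171 (22.9%) and 215 did so, and their median fold over the limit, at 1.59, was higher than that of the gained regions. Scaling by the background of each library would raise the gained folds and lower the lost ones. These folds and counts were not recomputed that way, so their order holds for the tag-density scaling only.

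The share of gained regions with an IRF motif was higher at each step away from the limit. It was 8.20% under 1.5 times the limit, 15% from 1.5 to 2 times, 25.6% from 2 to 3 times, 41.4% from 3 to 4 times and 51.8% (41.2 to 62.2%) in the 83 regions at 4 times or more. In lost regions it was 2.23% in the lowest group and in 1 of 28 in the highest. The motif of CTCF, a zinc finger protein that shapes chromatin loops, was found in 2.03% of lost regions in the lowest group, against 2.71% of gained ones, and in 13.3% of lost regions at 2 to 3 times the limit and 18.8% (14.3 to 24.2%) at 3 to 4 times. Taken whole, lost regions held the CTCF motif in 6.77% and shared peaks in 8.77%. At 15 to 29 tags it was in 10.4% of lost regions and 12.7% of shared peaks. At 30 to 59 tags it was in 13.0% and 12.3%. The promoter share of gained regions did not rise with the fold. It was 16.4% under 1.5 times the limit, 12.3% from 2 to 3 times and 14.5% at 4 times or more.

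**Figure D2:**
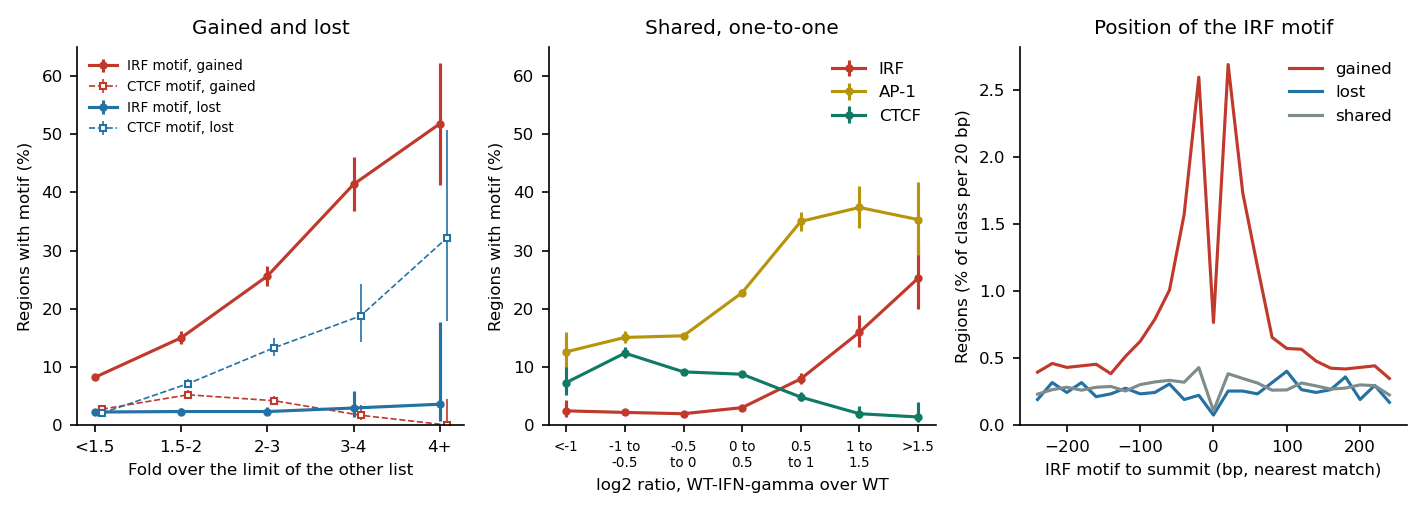
Left, share of gained and lost regions with an IRF or CTCF motif (%, y axis) by the fold of the pileup over the limit of the other list (x axis). Centre, the same for one-to-one shared regions by log2 ratio of pileups, with the AP-1 motif added. Bars are 95% Wilson intervals. Right, position of the nearest IRF motif relative to the summit (bp) as a share of each class per 20 bp. The IRF share of gained regions runs from 8.20% to 51.8%, and in the bins centred at -20, 0 and 20 bp the motif stands at 2.59%, 0.765% and 2.69% of gained regions, with a like dip at the centre in lost and shared regions.

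In gained regions with an IRF motif within 250 bp, the motif lay at a median of 57.5 bp from the summit (n = 3458), compared with 124.5 bp in lost (n = 596) and 117.5 bp in shared regions (n = 3629). In gained regions of at least 60 tags this was 32.5 bp. In all 3 classes fewer motif centres lay in the bin at the summit than in the bins on either side, with 130 against 441 and 457 in gained, 7 against 21 and 24 in lost and 53 against 216 and 193 in shared regions.

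Sequence at gained regions also held the AP-1 motif, bound by FOS and JUN proteins, in 18.6%, against 13.0% in lost and 19.3% in shared regions. Its share too was higher away from the limit, at 14.6% of gained regions under 1.5 times and 26.0% from 2 to 3 times. Regions gained with IFN-γ were looked up in the list of untreated FLI1-knockout cells, which received no IFN-γ. Of the 16999, 4466 (26.3%, 25.6 to 26.9%) were listed there. Of the lost regions, 2694 (28.4%) were listed in IFN-γ-treated FLI1-knockout cells. By fold over the limit, the gained share was 21.7% under 1.5 times and 33.8% from 2 to 3 times. The lost share was 16.1% and 44.4% in the same groups. How many of the shared peaks stand in those lists was not counted, so these shares cannot be called high or low.

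Transcription start sites were examined by summits within 1 kb of the canonical TSS of each of 19962 protein-coding genes. With IFN-γ, 342 genes had a peak there where the untreated list had none (1.71%), and 189 had the opposite (0.947%). A further 11509 had a peak in both lists, of which 33 (0.287%) were at least 2-fold higher and 13 at least 2-fold lower after depth correction. No peak of either list reached the window at 7200 genes, and 722 with a peak there fitted none of these groups. The 21 interferon lists hold 172 genes, and 26 of them (15.1%) had a TSS peak only with IFN-γ and 1 only without it. At 39 there was no peak in either list, and 3 (PARP14, PSMB10 and IRF3) fitted none of these groups. Of the 103 interferon TSSs with a peak in both lists, 16 were at least 2-fold higher and 0 at least 2-fold lower. They made up 16 of the 33 TSSs at least 2-fold higher among all genes. Their median log2 ratio was 0.29 against -0.08 over all genes, and 83 of the 103 were above 0, compared with 32.0% of all TSSs.

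**Figure D3:**
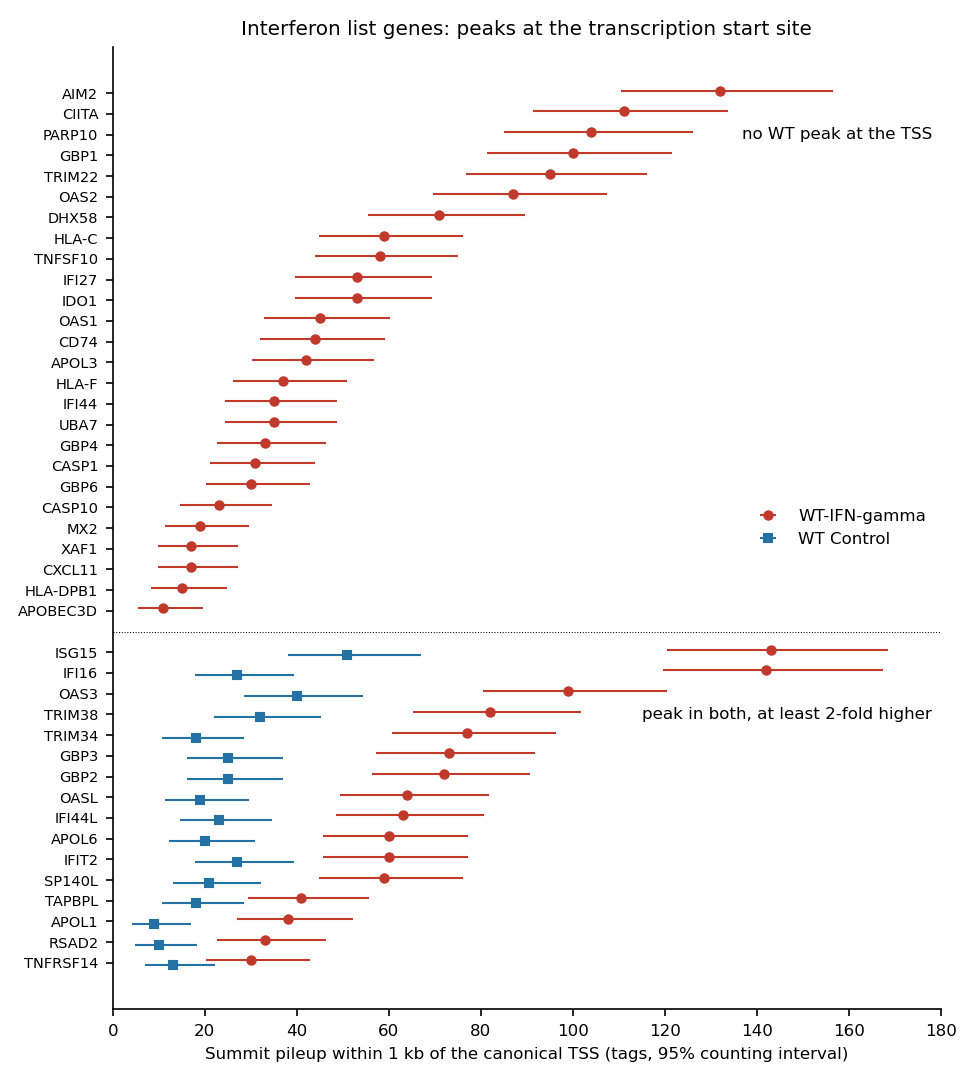
Summit pileup (tags, x axis) at the canonical TSS of interferon list genes with no untreated peak there (upper block) and with a peak in both lists that was at least 2-fold higher (lower block), red for IFN-γ and blue for untreated, with 95% counting intervals. The new TSS peaks run from 11 tags at APOBEC3D to 132 tags at AIM2. In the lower block the plotted intervals of each pair are separate except at TNFRSF14, and after correction for tag density those of TAPBPL overlap too.

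**Figure D4:**
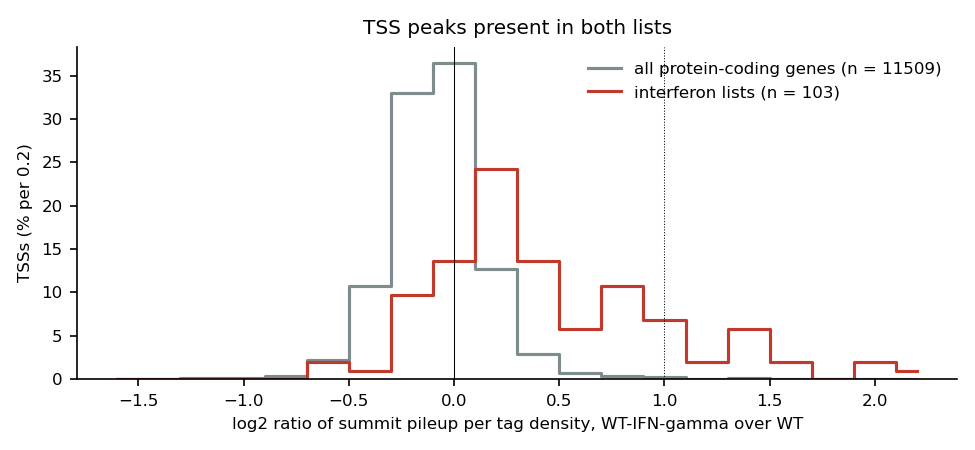
Log2 ratio of TSS pileups, IFN-γ over untreated and corrected for tag density (x axis), as a share of TSSs per 0.2 (y axis), for 11509 protein-coding genes and for 103 interferon list genes. The bulk of genes lies about -0.08 and the interferon genes extend beyond 1.

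AIM2, a cytosolic DNA sensor that forms an inflammasome, had the largest new TSS peak of all 342 genes, at 132 tags (110 to 157), 4.81 times the untreated limit. At the transactivator CIITA the canonical TSS had 111 tags (91.3 to 134) and no peak in the untreated WT list. This CIITA peak was also listed in untreated FLI1-knockout cells. GBP1, a GTPase that attacks pathogen-containing vacuoles, had 100 tags (81.4 to 122). In the untreated WT list these starts had no peak within 1 kb.

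TRIM22, an antiviral ubiquitin ligase, had 95 tags (76.9 to 116). OAS2, which makes the second messenger that activates RNase L, had 87 tags (69.7 to 107). DHX58, a helicase of the RNA-sensing pathway, had 71 tags (55.5 to 89.6). All 3 belong to defence against viruses.

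Of the 26 new interferon TSS peaks, 13 held an IRF motif, as did 11 of the 16 that were at least 2-fold higher. Over all genes the motif was in 12% of the 342 new TSS peaks (9 to 15.9%), 48.5% of the 33 at least 2-fold higher (32.5 to 64.8%) and 2.08% of the 11509 in both lists.

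The highest ratio at a TSS listed in both belonged to IFI16, a nuclear DNA sensor, which had 27 tags untreated (17.8 to 39.3) and 142 with IFN-γ (120 to 167), a log2 ratio of 2.26. C1S, a protease of the complement system that was in no list, had 25 and 118 tags, a log2 ratio of 2.1. BATF2, a transcription factor that partners with JUN and IRF proteins, had 22 and 81 tags, a log2 ratio of 1.74. In these 3 pairs the intervals did not overlap.

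ISG15, a ubiquitin-like modifier, had 51 and 143 tags, a log2 ratio of 1.35. Among TSSs outside the lists, CSF1, the growth factor of macrophages, had 45 and 109 tags, a log2 ratio of 1.14. RAET1E, a ligand of the natural killer cell receptor NKG2D, had 40 and 111 tags, a log2 ratio of 1.34. The genes named outside the lists here were chosen after their values were seen.

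Outside the lists new TSS peaks were also found at PER1, a component of the circadian clock, and at C3, the central complement protein. PER1 had 124 tags (103 to 148), 1.68 times the limit of 67 tags, and was also listed in untreated FLI1-knockout cells. C3 had 87 tags (69.7 to 107). Neither held an IRF motif. In the other direction, SHC1, an adaptor of growth factor receptors, had a TSS peak of 107 tags (87.7 to 129) in the untreated list only, which was 1.37 times the limit. IGF1R, the receptor of insulin-like growth factor, had 95 tags untreated (76.9 to 116) and 52 with IFN-γ (38.8 to 68.2), a log2 ratio of -1.01.

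Within 10 kb of any annotated TSS, 5206 of 19962 protein-coding genes had a gained region (26.1%) and 3126 a lost one (15.7%), and 1264 had both. In the interferon lists 88 of 172 genes had a gained region (51.2%, 43.7 to 58.5%) and 16 had a lost one. The list genes had 124 gained regions, 30 of them with an IRF motif, and 12 genes had no gained, lost or one-to-one shared region in this window. Of the comparison lists, E2F and cell-cycle genes had a gained region at 5 of 16, AP-1 and BATF factors at 3 of 11 and squamous epithelial genes at 9 of 20, and a lost region at 1, 2 and 7 genes. With both lists cut to the same length there were 10958 gained and 11189 lost regions in the genome as a whole. Equal lengths force these counts to be nearly alike, so this setting cannot show what the excess of gained regions depended on. At −log10 q of at least 5, where the lists kept unequal lengths, there were 10452 gained and 5331 lost regions.

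**Figure D5:**
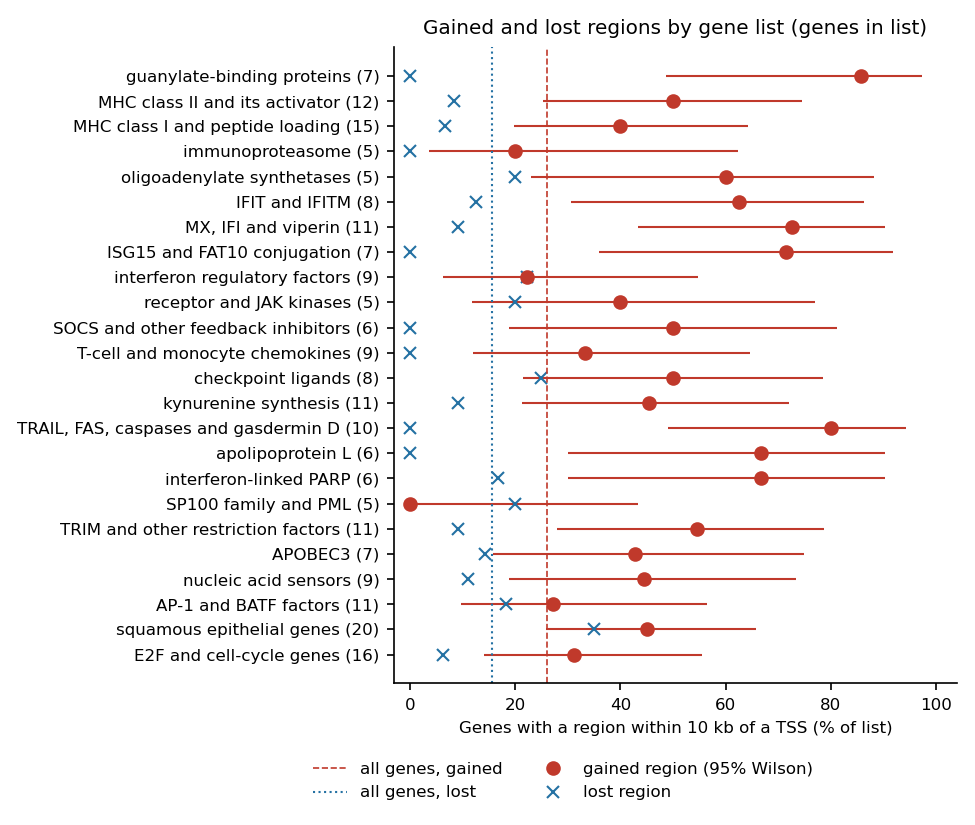
Share of each gene list (%, x axis; genes in the list in brackets) with a gained region (red, 95% Wilson interval) or lost region (blue) within 10 kb of a TSS, with the shares over all protein-coding genes as lines at 26.1% and 15.7%. Guanylate-binding proteins and the TRAIL, FAS and caspase list stand highest, at 6 of 7 and 8 of 10 genes, and the SP100 family lies at 0 of 5.

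The receptor for IFN-γ and its kinases stand at the head of the pathway. Of the 5 receptor and JAK kinase genes 2 had a gained region, and all 5 had TSS peaks in both lists with a median log2 ratio of 0.03. IFNGR1, the ligand-binding receptor chain, had 113 and 146 tags. At its TSS IRF1 had 112 tags untreated (92.2 to 135) and 172 with IFN-γ (147 to 200), a log2 ratio of 0.48. Its gained region of 150 tags at chr5:132480645-132482125 was 1.63 times the limit, which was 84 tags there. Of the 9 IRF genes 2 had a gained region and 2 a lost one.

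SOCS1, an inhibitor of JAK kinases, had 168 and 161 tags at its TSS, a log2 ratio of -0.20. Its gained region, with 68 tags and 3 IRF matches, was 1.17 times the limit. The 5 feedback genes with a TSS peak in both lists had a median log2 ratio of -0.10, which is close to the -0.08 over all genes.

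The guanylate-binding proteins, a family of interferon-induced GTPases in 1 cluster on chromosome 1, had gained regions at 6 of 7 genes and lost regions at 0. GBP5 had the largest, with 127 tags (106 to 151) and 3.73 times the limit. GBP4 and GBP6 had new TSS peaks of 33 and 30 tags. GBP2 had 25 and 72 tags at its TSS and GBP3 had 25 and 73, log2 ratios of 1.39 and 1.41. The 4 shared regions of the family were all at least 2-fold higher.

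In antigen presentation the class II genes had gained regions at 6 of 12. CIITA itself had 5, led by one of 136 tags (114 to 161) with its summit upstream of the canonical start, at 4.13 times the limit, besides those of 128 tags, whose sequence is printed, and 111 tags. The regions of 136 and 111 tags were also listed in untreated FLI1-knockout cells, and that of 128 tags was not. CD74, the invariant chain, had a new TSS peak of 44 tags at 1.38 times the limit. HLA-DRA had 19 and 34 tags, a log2 ratio of 0.70, with overlapping intervals. At the canonical TSSs of HLA-DRB1, HLA-DQA1 and HLA-DQB1 no peak was listed in either library, and HLA-DQB1 had a gained region of 14 tags at its annotated 5′ end.

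Class I and peptide-loading genes had gained regions at 6 of 15. HLA-C had a new TSS peak of 59 tags (44.9 to 76.1) at 4.88 times the limit and HLA-F one of 37 tags at 3.06 times. B2M, the light chain, had 125 and 159 tags, a log2 ratio of 0.21. TAP1 and PSMB9, the transporter and immunoproteasome genes that share a promoter region, had 149 and 198 tags, a log2 ratio of 0.27. ERAP2, which trims peptides, had 31 and 65 tags, a log2 ratio of 0.93. This list also held the 2 shared regions of the interferon lists that were at least 2-fold lower. The one at ERAP1, another trimming peptidase, had 35 and 16 tags, a log2 ratio of -1.27, and the one at PDIA3, a chaperone of peptide loading, had 24 and 13, a log2 ratio of -1.02. At its TSS PDIA3 had 59 and 42 tags, a log2 ratio of -0.63. After correction for tag density the intervals of the ERAP1 pair did not overlap, and those of both PDIA3 pairs did. Of the 5 immunoproteasome genes 1 had a gained region, and the 4 TSS peaks in both lists had a median log2 ratio of 0.01. PSME1 and PSME2, subunits of the proteasome activator, had log2 ratios of -0.26 and -0.16. HLA genes differ between people and resemble each other, so reads may have been assigned unevenly between them and these values are uncertain.

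Of 5 oligoadenylate synthetase pathway genes 3 had a gained region. The TSSs of OAS1 and OAS2 were new and those of OAS3 and OASL were at least 2-fold higher, with log2 ratios of 1.17 and 1.62. The IFIT and IFITM genes, which bind foreign RNA or block viral entry, had gained regions at 5 of 8, and all 7 of their TSS peaks were listed in both libraries with a median log2 ratio of 0.59. IFIT2 had 27 and 60 tags, a log2 ratio of 1.02. IFIT3 had 47 and 90 tags, a log2 ratio of 0.80.

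In the MX, IFI and viperin list 8 of 11 genes had a gained region. IFI27 and IFI44 had new TSS peaks of 53 and 35 tags. RSAD2, which encodes the antiviral enzyme viperin, had 10 and 33 tags, a log2 ratio of 1.59. IFI6 had 99 and 105 tags, a log2 ratio of -0.05, so its start was no higher than the bulk of genes. MX1 had no peak at its canonical TSS in either library, and a shared peak with an IRF motif at its annotated 5′ end had 36 and 65 tags, a log2 ratio of 0.72.

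Genes of ISG15 and FAT10 conjugation had gained regions at 5 of 7. UBE2L6, the conjugating enzyme, had 33 and 63 tags at its TSS, and a gained region of 62 tags whose sequence is printed. UBA7, the activating enzyme, had a new TSS peak of 35 tags. The apolipoprotein L genes, which include the trypanolytic factor APOL1, had gained regions at 4 of 6, and APOL1 had 9 and 38 tags at its TSS, a log2 ratio of 1.94.

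In the interferon-linked PARP list 4 of 6 genes had a gained region. PARP10 had a new TSS peak of 104 tags (85 to 126), which was also listed in untreated FLI1-knockout cells. PARP9 and DTX3L share a bidirectional promoter, where there were 83 and 164 tags, a log2 ratio of 0.85. The SP100 family and PML, components of nuclear bodies, had a gained region at 0 of 5 genes, but their 4 TSS peaks listed in both libraries had a median log2 ratio of 0.92, led by SP140L with 21 and 59 tags. A list without gained regions could thus hold shared regions with more tags.

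TRIM and other restriction factors had gained regions at 6 of 11, and TRIM34 had 18 and 77 tags at its TSS, a log2 ratio of 1.96. The nucleic acid sensors had gained regions at 4 of 9, and IFIH1, which senses long double-stranded RNA, had 58 and 107 tags, a log2 ratio of 0.75. The APOBEC3 deaminases, a family of related genes with stretches of similar sequence, had gained regions at 3 of 7. APOBEC3A had the only TSS peak of the interferon lists present untreated and absent with IFN-γ, at 21 tags (13 to 32.1), and also a gained region of 37 tags nearby.

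Cell-death genes had gained regions at 8 of 10. TNFSF10, the death ligand TRAIL, had a new TSS peak of 58 tags (44 to 75) at 4.06 times the limit. CASP1, the protease of inflammasomes, had one of 31 tags at 3.13 times. GSDMD, the pore-forming substrate of CASP1, had no TSS peak within 1 kb in either library, and a region shared by both lists upstream of it had 38 and 160 tags, a log2 ratio of 1.94.

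Of the 9 chemokine genes 3 had a gained region, and 4 had no gained, lost or one-to-one shared region within 10 kb of a TSS. CXCL9 and CXCL10, the T-cell attractants best known for induction by IFN-γ, were among those 4. CXCL11, their neighbour, had a new TSS peak of 17 tags (9.9 to 27.2). CX3CL1 had a gained region of 84 tags upstream of its TSS, at 3.82 times the limit.

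Checkpoint ligand genes had a gained region at 4 of 8 and a lost one at 2. CD274, which encodes PD-L1, had 44 tags untreated (32.0 to 59.1) and 81 with IFN-γ (64.3 to 101), a log2 ratio of 0.74. TNFRSF14 had 13 and 30 tags, a log2 ratio of 1.07, with intervals that overlap. Among the 11 genes of kynurenine synthesis, the breakdown of tryptophan that IDO1 begins, 5 had a gained region. IDO1 had the one new TSS peak of that list, at 53 tags (39.7 to 69.3), and KMO, KYAT1, KYAT3 and AFMID lay between log2 ratios of -0.25 and 0.34.

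Among shared regions as a whole, 49258 pairs overlapped one to one. Their median log2 ratio was -0.07, the SD over regions was 0.41, and counting error alone gives 0.36. At least 2-fold higher with IFN-γ were 889 pairs (1.8%) and at least 2-fold lower 453 (0.92%). Requiring that counting intervals do not overlap left 597 and 125. Scaling by the background of each library moved every ratio up by 0.14 and gave 1402 higher and 176 lower pairs, so the split of higher against lower moved with the scaling.

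Shared regions at least 2-fold higher held the IRF motif in 18.2% (15.8 to 20.9%) and the AP-1 motif in 36.9%, against 2.42% and 18.5% of those within 1.5-fold. In regions at least 2-fold lower these shares were 2.43% and 12.6%. The CTCF motif was in 1.80% of regions at least 2-fold higher, 9.09% within 1.5-fold and 7.28% (5.23 to 10.1%) of regions at least 2-fold lower. The regions at least 2-fold higher were also less often promoters, at 12.9% against 37.0% within 1.5-fold.

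The largest ratio among pairs summing to at least 60 tags was upstream of RNF7, with 8 tags untreated (3.45 to 15.8) and 92 with IFN-γ (74.2 to 113), a log2 ratio of 3.39. Its sequence is printed with 1 IRF match. A region near TVP23A, in the neighbourhood of CIITA, had 13 and 122 tags, a log2 ratio of 3.09. One near CLEC3B had 24 and 181 tags, a log2 ratio of 2.78, and a gained region of 139 tags lay close by.

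An intergenic region nearest to LY6E, which encodes an interferon-induced membrane protein, had 18 and 121 tags, a log2 ratio of 2.61. Its summit lay 3976 bp downstream of the nearest annotated TSS of that gene. Of the 10 highest pairs 6 held an IRF motif. The largest differences downward were smaller. The region nearest LRATD2 had 61 and 18 tags, a log2 ratio of -1.90, and one in an intron of ARHGAP26 had 53 and 21.

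Outside the lists, the largest gained regions were not the ones farthest above the limit. A region upstream of HSPA5, which encodes the endoplasmic reticulum chaperone BiP, had 167 tags (143 to 194) and was 2.41 times the limit. One in an intron of RPRD1B, nearest to the start of the transglutaminase gene TGM2, had 156 tags and was 2.45 times. Ranked by fold over the limit, the first was an intergenic region nearest to the cadherin gene CDH12, with 109 tags and 5.51 times the limit, and HLA-C and AIM2 were among the first 10. The CDH12 region was also listed in untreated FLI1-knockout cells, and the AIM2 region was not. This ranking by fold was chosen after the values were seen. Those at PLEC, HES1, ID1 and near MRPL23 had 130 to 149 tags but were 1.11 to 1.49 times the limit, which was 85 to 116 tags there.

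The largest lost regions were of the same kind. The one nearest AZIN1 had 161 tags and was 1.43 times the limit, and none of the 10 largest held an IRF motif. At its TSS SLC45A4 lost a region of 82 tags (65.2 to 102), 4.1 times the limit. Ranked by fold over the limit instead, the lost regions were led by one nearest to DHRS4 (70 tags, 5.92 times), one at NCF1 (41 tags, 5.63 times) and one near CASTOR2 (65 tags, 5.10 times). NCF1 and CASTOR2 have near-identical copies, so tags there may be assigned unevenly.

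Gained regions were spread over the genome, with a median of 3 in the 5389 bins of 500 kb that held a peak, and 11 at the 99th percentile. The bin with the GBP cluster (chromosome 1, 89000001 to 89500000) had 16 gained of 22 peaks, 7 of them with an IRF motif. The bin with the most, 24 of 47, lay on chromosome 5 from 1000001 to 1500000 at TERT, where 2 held the motif. Neighbouring bins of chromosome 16, which hold CIITA and SOCS1, had 15 and 18 of 36 each. The median local background was 6.65 tags in the TERT bin, 6.11 in the GBP bin, 6.66 in the SOCS1 bin and 4.57 in the CIITA bin, against 3.95 over all peaks, and its part in these counts was not tested. By chromosome the gained share was between 18.3% on 19 and 31.6% on 13.

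The labelled cell type was checked at the promoters of its markers. A peak summit within 1 kb of a TSS was listed for 5 of 9 epithelial markers untreated and 6 of 9 with IFN-γ. Among them were KRT8, KRT18, EPCAM and SFN. The squamous markers TP63, KRT5 and KRT14 had none in either list. Of other cell types, 0 of 3 T-cell markers, 1 of 2 B-cell, 1 of 3 leukocyte and 3 of 4 fibroblast markers had one in both libraries, and 1 of 3 endothelial markers had one untreated only. COL1A1 had 142 and 172 tags and PTPRC, the common leukocyte antigen, had no peak. A promoter peak does not show expression, and whether other cells contributed was not tested.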

How the data were processed

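ATAC-seq peak lists of HK1 cells, WT Control and WT IFN-gamma, 1 library each, were analysed. Per the study's methods and the submitters' processing notes, the authors used Trimmomatic 0.3 for trimming, Bowtie2 2.3.4.1 for alignment (build GRCh38) and MACS2 2.1.2 for peak calling, after removing duplicate and poorly mapped reads. The methods also describe keeping peaks that an irreproducible discovery rate (IDR) analysis found reproducible. How many replicates stand behind each deposited list is not given in the sources used here, nor is any shift of read ends for transposase cutting. Each deposited list gives a score, a fold (ratio) over local background, −log10 p and −log10 q per peak, as MACS2 writes them. The tags at each summit and the local background were computed from the deposited fold and −log10 p (whole within 0.01 for 100% of peaks). Tag density was the lowest background (2.20 tags in both lists) over the shortest peak (249 bp with IFN-γ, 274 bp untreated). These lengths differ between the libraries. Scaling the shared ratios by background leaves the lengths out, and it gave 1402 higher and 176 lower pairs against 889 and 453. The part of the lengths in the other results was not tested.

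Pileups were compared after division by tag density, for shared peaks only where they overlapped one to one. TSSs came from GENCODE release 44. Intervals are 95% Wilson or exact Poisson. Motifs were searched within 100 bp of summits on both strands: IRF as GAAA, any 2 bases, GAAA (overlapping matches counted), AP-1 as TGAGTCA or TGACTCA and CTCF by its core consensus. For each gene list the counts and up to 4 members with the largest gained region were to be named, genome-wide the 12 largest gained regions outside the lists, the 10 largest lost ones and the 10 highest and lowest shared ratios, and the TSS analysis was added afterwards. The members, lists and rules were chosen with earlier results of these data known. There are 24 gene lists with 219 genes, written from general knowledge. The steps were tested on simulated data. Versions were scipy 1.17.1, pysam 0.24.0, pandas 2.3.3, numpy 2.4.6 and Python 3.11.15. Some loci, sequences and 1 motif are not reported here.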

Additional observations from a re-analysis of the deposited data

How the results depend on the processing

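With 1 library per group, counting error is the one source of spread these data measure. No paired analysis was possible because no result comes from a test and each group has 1 library. Of 46 alternatives, 26 gave a like value and 20 did not. Requiring −log10 q of at least 5 left 10452 gained and 5331 lost regions, with promoter and IRF shares of 16.1% and 16.1% among the gained. Equal list sizes gave 10958 gained and 11189 lost regions, counts that equal lengths force to be nearly alike. The IRF share there was 17.1% among gained and 2.22% among lost regions. No peak within 1 kb gave a promoter share of 14%, and a larger required overlap (0.5 of the shorter peak) an IRF share of 12.9%. Genes with a gained region numbered 2398 within 3 kb and 12089 within 50 kb, where 137 interferon list genes had one (79.7% against 60.6% of all genes). The promoter share was 7.71% within 1 kb of a TSS and 23.7% with TSSs of all annotated genes. The IRF share was 8.77% within 50 bp and 20.3% within 250 bp of the summit. Shared regions at least 2-fold higher or lower numbered 1402 and 176 when scaled by background, 517 and 87 where pileups sum to 60 tags or more, and the lower ones 125 with separate counting intervals. Thinning the IFN-γ library to the untreated depth (21 draws) gave 16321 gained regions and 9599 lost ones.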
